A study of Mus musculus with 8 samples.

Results

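The mitochondrial carrier family, whose genes carry Slc25a symbols, was examined in the hippocampus of Kv10.1 knockout and wildtype mice. Members were chosen by name from the platform annotation, as every probe set whose gene symbol begins with Slc25a and a number, together with the uncoupling protein genes Ucp1 and Ucp3. This gave 48 probe sets, each of a different gene, out of 20985 on the array. The 48 are not the whole family, since the annotation names no gene for 1064 probe sets and family genes without a named row are not analysed here. Of these, 47 are protein-coding genes and 1, Slc25a5-ps, is a pseudogene, whose probes may share sequence with a family gene and whose signal is therefore uncertain.

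Knockout animals (Kv10.1 -/-, n = 4) were compared with wildtype animals (Kv10.1 +/+, n = 4), all untreated males aged 8 weeks, with 1 array for each mouse. Kv10.1, or Eag1, is a voltage-gated potassium channel of the brain encoded by Kcnh1, and the series set out to characterise mice that lack it. The background strain, and which part of Kcnh1 was deleted, were left unstated in the sources used here. Values are deposited log2 expression levels of whole-hippocampus RNA, and all differences are knockout minus wildtype on that scale.

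Carriers of this family sit mostly in the inner mitochondrial membrane and move nucleotides, phosphate, amino acids, carboxylates, cofactors and protons between the cytosol and the matrix. In brain they deliver ATP, feed the malate-aspartate shuttle that brings cytosolic reducing equivalents to the respiratory chain, and supply glutamate and cofactors to the matrix. Uncoupling proteins let protons back into the matrix, and Ucp1 is the heat-producing carrier of brown fat.

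The target gene and the arrays were checked first. Kcnh1 read 8.36, 8.31, 8.43 and 8.29 in knockout mice, against 9.52, 9.35, 9.22 and 9.27 in wildtype mice, so the groups did not overlap and the labels held for all 8 mice (limma adjusted p = 0.00319). The position of its probes relative to the deletion is unknown, so what the remaining knockout signal consists of was not determined. Of the markers listed for neurons, all 6 lay between the 96.8th and 99.98th percentile of wildtype signals, and the 5 for dentate granule cells, a hippocampal cell type, between the 45.7th and 96.2nd. The arrays of wildtype 1 and, less so, knockout 1 stood apart, with scores of 32.0 and 14.9 on the first principal component of all probe sets against -15.9 to 0.81 in the other 6. Mouse numbers in the titles fall into a lower series with knockout 1 and wildtype 1, 2 and 3, and a higher series with knockout 2, 3 and 4 and wildtype 4, so number series and genotype are largely confounded.

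Carrier genes covered nearly the whole range of the array. Wildtype means ran from 5.67 for Slc25a31 to 11.65 for Slc25a23, with 17 of 48 members in the brightest 25% of all probe sets, 31 above the median and 5 in the dimmest 25%. Signals of different probe sets depend on their probes as well as on the transcript, so this order places signals, not transcript amounts. Among the 47 pairs of neighbours in the wildtype order, 39 had overlapping wildtype values, so most steps of the order lie within the spread between mice. The knockout order was close to it, as 46 members moved by at most 2 places and Ucp1 moved furthest, by 4 places.

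**Figure D1:**
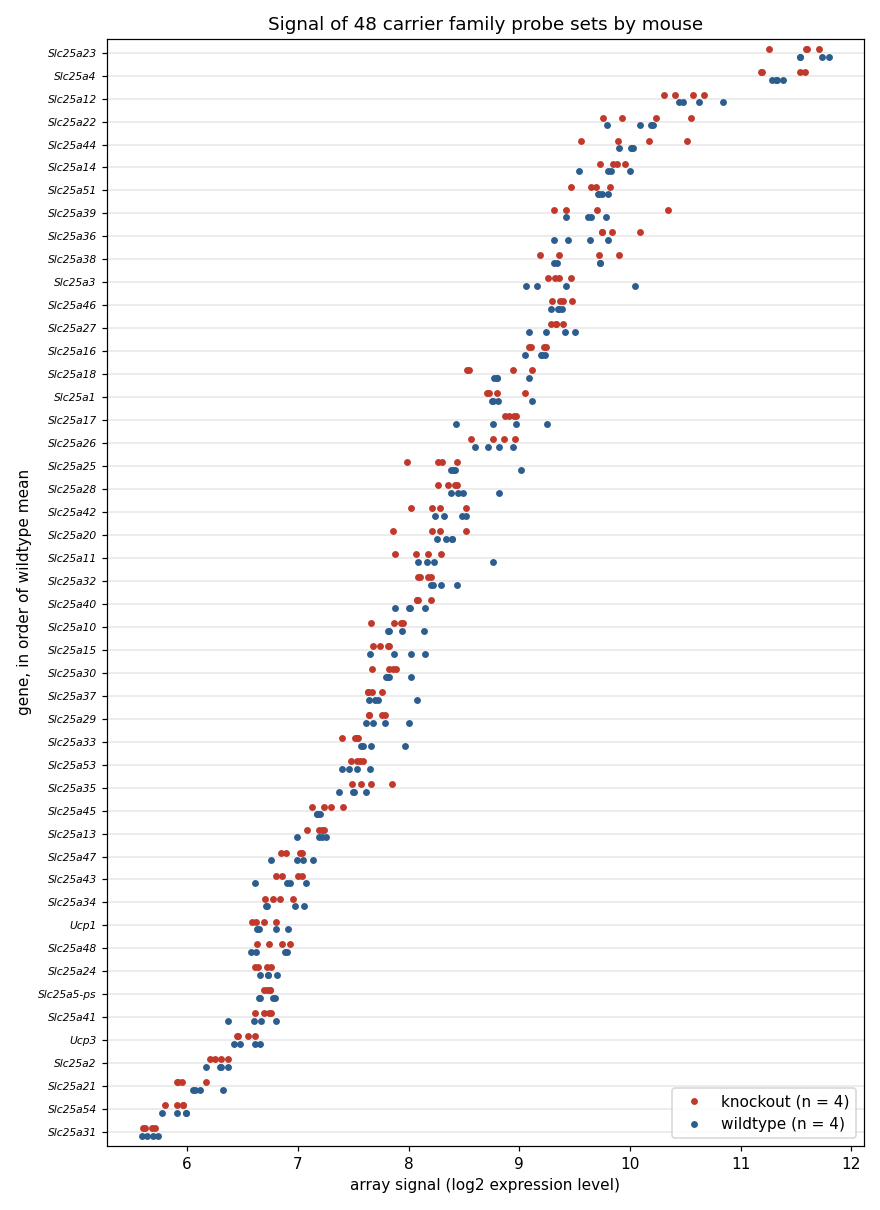
Log2 array signal (x axis) of the 48 carrier family probe sets (y axis, in order of wildtype mean), with 1 point per mouse, red for the 4 knockout and blue for the 4 wildtype mice. The groups overlap in every row but that of Slc25a33, and signals span 5.67 to 11.65 in wildtype means.

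Carriers of ATP, phosphate and glutamate led the order. Slc25a23, a calcium-binding carrier that exchanges ATP-Mg for phosphate, averaged 11.54 ± 0.194 in knockout mice and 11.65 ± 0.135 in wildtype mice (SD, n = 4 each). Slc25a4, the ADP/ATP carrier of heart, muscle and brain, averaged 11.37 ± 0.217 in knockout mice and 11.33 ± 0.041 in wildtype mice (SD, n = 4 each). Slc25a12, the aspartate/glutamate carrier aralar of neurons, averaged 10.49 ± 0.161 in knockout mice and 10.60 ± 0.181 in wildtype mice (SD, n = 4 each). These 3 and the next, the glutamate carrier Slc25a22, had wildtype values that did not overlap between successive ranks. Slc25a44, a carrier of branched-chain amino acids, came next with a wildtype mean of 9.99. The same 5 genes led the order in knockout mice.

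The dimmest 5 members by wildtype mean were Slc25a31, Slc25a54, Slc25a21, Slc25a2 and Ucp3. Slc25a31, the ADP/ATP carrier of testis, averaged 5.65 ± 0.051 in knockout mice and 5.67 ± 0.065 in wildtype mice (SD, n = 4 each), at the 4.88th percentile of wildtype signals. Slc25a54 was at 5.91 in knockout and 5.92 in wildtype mice. Slc25a21, the oxodicarboxylate carrier, was at 5.99 in knockout and 6.14 in wildtype mice, and Slc25a2, an ornithine carrier, at 6.29 in both groups. Ucp3, the uncoupling protein of skeletal muscle, was at 6.52 in knockout and 6.54 in wildtype mice, and Ucp1 at 6.68 in knockout and 6.75 in wildtype mice. Detection calls were not used here, so whether these low signals lie above background is unknown.

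No carrier gene passed the test between knockout and wildtype mice. At a limma adjusted p under 0.05, 0 of 48 members were called, against 1 of 20985 probe sets (0.00477%), which was Kcnh1. At an unadjusted p under 0.05 there was 1 member of 48 (2.08%), against 3.16% of all probe sets. It was higher in knockout mice, as were 1.63% of all probe sets, while 0 members and 1.53% of all probe sets were lower at that p. The 48 differences ran from -0.31 to 0.31, with a median of -0.019 beside -0.0025 for all probe sets. The sign of the members' median was not stable, at 0.011 with the mouse number series as a block, 0.0024 with array weights and -0.048 to 0.00083 with single mice left out. Of the members, 20 were higher and 28 lower in knockout mice (58.3% lower, against 50.9% of all probe sets), and 33 lay within 0.1 of no difference (68.8%, against 68.0%). Lower members numbered 21 with the block, 24 with array weights and with median centring, and 23 to 33 with single mice left out, so no majority either way held throughout. No member lies on chromosome 1, which carries Kcnh1.

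Taken from the fit without the mouse number series, the intervals limit how large an undetected difference could be only if that series has no effect. The 95% interval of 44 members stayed within 0.5 log2 units of 0 on both sides, and that of 27 members within 0.3. The 4 exceptions were Slc25a25 (interval from -0.64 to 0.03), Slc25a36 (0.05 to 0.57), Slc25a11 (-0.53 to 0.11) and Slc25a39 (-0.35 to 0.50). Setting the mouse number series as a block moved estimates both towards and away from 0. Slc25a44 went from 0.045 to 0.20, Slc25a39 from 0.075 to 0.28 and Slc25a25 from -0.305 to -0.19. Intervals with the block are not given here. In whole-tissue RNA, fewer cells of a type and less RNA per cell cannot be told apart.

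**Figure D2:**
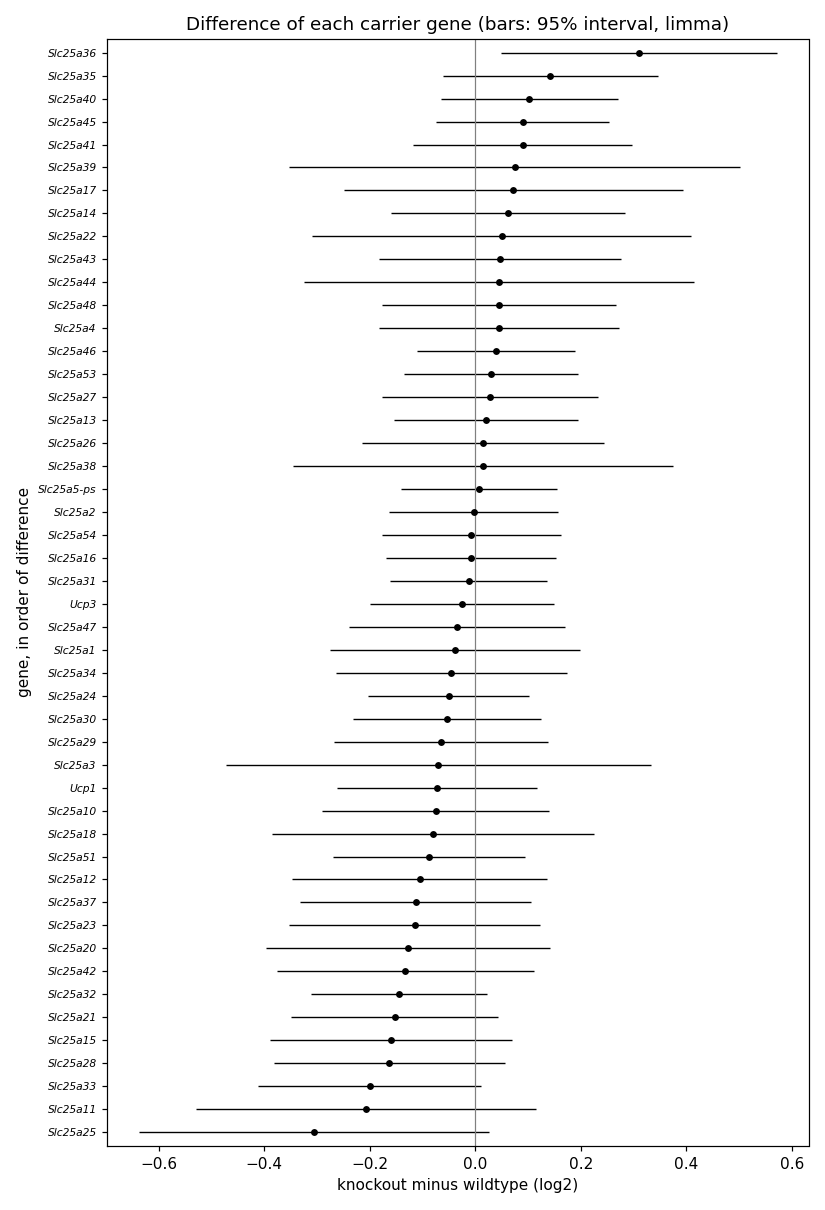
Difference between knockout and wildtype means (x axis, log2) with the limma 95% interval for each of the 48 genes (y axis, in order of difference). Point estimates run from -0.31 to 0.31, and the interval of Slc25a36 alone leaves out 0, before any adjustment for the number of probe sets.

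The largest positive difference belonged to Slc25a36, one of the carriers of pyrimidine nucleotides needed for mitochondrial DNA and RNA synthesis. Slc25a36 read 10.09, 9.84, 9.75 and 9.75 in knockout mice, against 9.31, 9.80, 9.44 and 9.64 in wildtype mice. Wildtype 2 lay above knockout 3 and 4, so the groups overlapped. The difference was 0.31 ± 0.118 (SE; limma unadjusted p = 0.0244, adjusted p = 0.997). Leaving out single mice moved it between 0.23 and 0.39, with a limma unadjusted p of 0.0724 without knockout 1 and 0.0639 without wildtype 1. Without both of these mice it was 0.15 (unadjusted p = 0.151). It was 0.57 within the lower series of mouse numbers (1 knockout against 3 wildtype) and 0.14 within the higher (3 against 1).

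Slc25a33, the other pyrimidine nucleotide carrier of the array, differed in the opposite sense. It read 7.40, 7.52, 7.53 and 7.54 in knockout mice, against 7.97, 7.66, 7.59 and 7.57 in wildtype mice. All 4 knockout values lay below all 4 wildtype values, with knockout 4 close to wildtype 4. This was 1 of 48 members (2.08%), beside 1.19% of all probe sets separated downward, and 0 members were separated upward, beside 0.967% of all probe sets. The difference of -0.20 ± 0.095 (SE; limma adjusted p = 0.997) was -0.11 without wildtype 1, -0.08 without wildtype 1 and knockout 1, and -0.34 within the lower and -0.04 within the higher series of mouse numbers.

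The promoters of these carriers, of Slc25a25 and of the ADP/ATP carriers Slc25a4 and Slc25a31 are printed. They show what lies before the starts of the members with the smallest limma unadjusted p and of a pair with a like substrate that lay far apart in signal. Each line gives the 250 bases before the most upstream start in RefSeq's table (build GRCm38.p6), 5′ to 3′ on the gene's strand, with CG dinucleotides in capitals.
Slc25a36, chr9:97111042-97111291, minus strand: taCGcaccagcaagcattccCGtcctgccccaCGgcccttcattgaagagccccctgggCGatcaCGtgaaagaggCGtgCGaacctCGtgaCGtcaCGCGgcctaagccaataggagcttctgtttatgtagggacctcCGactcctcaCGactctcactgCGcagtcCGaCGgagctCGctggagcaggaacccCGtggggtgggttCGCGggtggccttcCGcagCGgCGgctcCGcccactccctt
Slc25a33, chr4:149774268-149774517, minus strand: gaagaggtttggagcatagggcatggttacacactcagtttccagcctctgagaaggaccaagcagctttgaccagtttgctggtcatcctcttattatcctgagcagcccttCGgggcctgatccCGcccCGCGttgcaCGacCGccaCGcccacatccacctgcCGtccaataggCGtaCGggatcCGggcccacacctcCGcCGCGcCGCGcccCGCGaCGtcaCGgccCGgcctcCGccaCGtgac
Slc25a25, chr2:32451471-32451720, minus strand: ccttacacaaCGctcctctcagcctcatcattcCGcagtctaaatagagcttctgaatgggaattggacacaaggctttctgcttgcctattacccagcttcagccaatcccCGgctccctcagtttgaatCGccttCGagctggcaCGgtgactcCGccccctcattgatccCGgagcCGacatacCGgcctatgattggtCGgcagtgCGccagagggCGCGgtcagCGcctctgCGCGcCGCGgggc
Slc25a4, chr8:46211063-46211312, minus strand: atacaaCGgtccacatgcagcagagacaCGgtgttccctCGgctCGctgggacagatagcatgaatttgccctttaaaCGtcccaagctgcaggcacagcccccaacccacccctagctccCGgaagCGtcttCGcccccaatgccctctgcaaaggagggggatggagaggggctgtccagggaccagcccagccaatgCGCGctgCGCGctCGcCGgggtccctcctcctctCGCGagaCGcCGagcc
Slc25a31, chr3:40708621-40708870, plus strand: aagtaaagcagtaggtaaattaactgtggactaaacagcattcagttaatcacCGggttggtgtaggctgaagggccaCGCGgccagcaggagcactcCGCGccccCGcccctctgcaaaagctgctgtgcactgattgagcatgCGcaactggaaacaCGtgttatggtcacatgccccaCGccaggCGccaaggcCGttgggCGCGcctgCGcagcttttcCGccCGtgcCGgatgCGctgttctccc

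Slc25a36, Slc25a33 and Slc25a25 hold 24, 23 and 19 CG dinucleotides in this window, and Slc25a4 and Slc25a31 hold 18 each. The table held starts of 37 of the 48 members, which had a median of 12 CG dinucleotides against 6 over 27025 genes. Those 27025 genes were not limited to protein-coding genes or to genes on the array. A comparison with protein-coding genes alone was not made. The 24 matched members above the array's median signal in wildtype mice had a median of 17.5 CG dinucleotides (range 2 to 40), and the 13 below it a median of 10 (range 1 to 18). The ranges overlap widely, and Slc25a4 and Slc25a31 have the same count at wildtype signals of 11.33 and 5.67.

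**Figure D3:**
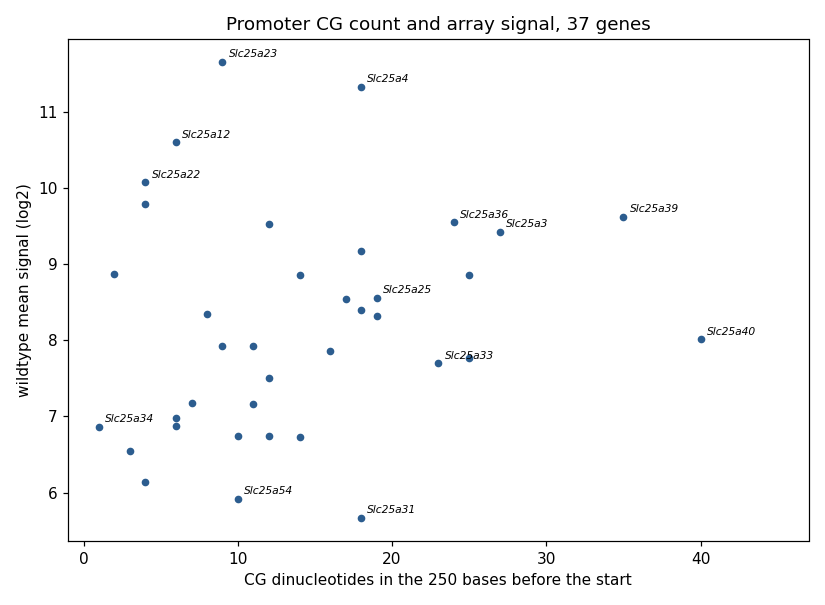
Number of CG dinucleotides in the 250 bases before the most upstream start (x axis) and wildtype mean signal in log2 units (y axis) for the 37 members with a start in RefSeq's table, 1 point per gene. Slc25a12 and Slc25a22 pair signals of 10.60 and 10.07 with 6 and 4 CG dinucleotides, and Slc25a31 pairs a signal of 5.67 with 18.

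Short motifs were searched in the same windows on both strands, and shares of all genes refer to the same 27025 genes of every class. The cyclic AMP response element TGACGTCA was found before 1 of 37 members, Slc25a36 (2.70%, against 1.60% of all genes), where it reads tgaCGtca in the line above. The box CCAAT was found before 16 of 37 (43.2%, against 34.5%), including Slc25a36, Slc25a33, Slc25a25 and Slc25a4. The box TATAAA was found before Slc25a18 alone (2.70%, against 13.0%). The Ets-type motif CCGGAAGT was found before Slc25a20 alone (2.70%, against 2.92%), and the palindromic NRF1 motif before 0 members (against 0.777%). A match describes letters and shows neither binding nor its absence.

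Among the ADP/ATP and phosphate carriers, 0 of 3 passed the test. Slc25a5, also of this group, has no named row and is not among the members. Slc25a3, the carrier that brings phosphate to ATP synthase, read 9.47, 9.26, 9.32 and 9.36 in knockout mice, against 10.05, 9.42, 9.06 and 9.16 in wildtype mice. The wildtype values spanned the knockout values on both sides, with wildtype 1 highest. The difference was -0.07 ± 0.182 (SE) and 0.14 without wildtype 1. Slc25a4 read 11.58, 11.54, 11.19 and 11.18 in knockout mice, against 11.38, 11.32, 11.28 and 11.33 in wildtype mice. Its knockout values split into a higher and a lower pair around all 4 wildtype values, and the difference was 0.05 ± 0.103 (SE), or -0.02 without knockout 1 and -0.01 without knockout 2.

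The ATP-Mg/phosphate carriers adjust the adenine nucleotide pool of the matrix, some of them when cytosolic calcium rises, and 0 of 4 passed. Slc25a25 had the largest negative difference of the family. It read 8.44, 8.30, 8.27 and 7.99 in knockout mice, against 9.02, 8.42, 8.38 and 8.40 in wildtype mice. Wildtype 1 lay far above the other wildtype mice, and knockout 1 lay within the wildtype range. The difference was -0.31 ± 0.150 (SE; limma unadjusted p = 0.0677, adjusted p = 0.997) and -0.15 without wildtype 1. It was -0.37 without knockout 1 (limma unadjusted p = 0.0439, adjusted p = 0.897). Without both of these mice it was -0.21 (limma unadjusted p = 0.0482, adjusted p = 0.994). Other settings gave a larger p. The difference was -0.19 with the mouse number series as a block (limma unadjusted p = 0.270). With array weights it was -0.17 (limma unadjusted p = 0.121), and without knockout 2 it was -0.32 (limma unadjusted p = 0.0915). Within the lower and the higher series of mouse numbers it was -0.17 and -0.21. Slc25a23 differed by -0.12 and Slc25a24 by -0.05, while Slc25a41 differed by 0.09. The value of Slc25a23 was -0.02 without knockout 1 and -0.24 with the mouse number series as a block (limma unadjusted p = 0.0418, adjusted p = 0.868), and that of Slc25a41 was 0.010 without wildtype 1. Slc25a23 and Slc25a41 are adjacent in the gene table of chromosome 17, yet their wildtype means were 11.65 and 6.61.

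Of the uncoupling proteins and their relatives, 0 of 5 passed. In the fit without the mouse number series, all 5 intervals lay within 0.3 of no difference. Slc25a14 and Slc25a27, which are the brain uncoupling proteins UCP5 and UCP4, differed by 0.06 and 0.03. They averaged 9.86 and 9.34 in knockout mice, against 9.79 and 9.31 in wildtype mice. Slc25a30, a related carrier described in kidney, differed by -0.05, Ucp1 by -0.07 and Ucp3 by -0.025. Without wildtype 4 the values of Slc25a14 and Slc25a27 were -0.02 and -0.05. With the mouse number series as a block they were 0.18 and 0.10. The block gave -0.08 for Slc25a30, -0.155 for Ucp1 and 0.027 for Ucp3.

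The aspartate and glutamate carriers link mitochondria to the transmitter pool, and 0 of 4 passed. Slc25a22 read 10.55, 10.24, 9.93 and 9.76 in knockout mice, against 9.79, 10.19, 10.21 and 10.09 in wildtype mice. The knockout values spread on both sides of the wildtype range (SD 0.349 in knockout and 0.194 in wildtype mice), with knockout 4 lowest and wildtype 1 next. The difference was 0.05 ± 0.162 (SE), or -0.09 without knockout 1 and -0.04 without wildtype 1. It was 0.17 without knockout 4 and 0.19 with the mouse number series as a block. Slc25a18, the second glutamate carrier and a gene of astrocytes, read 9.12, 8.94, 8.55 and 8.53 in knockout mice, against 9.09, 8.77, 8.80 and 8.80 in wildtype mice. Its difference was -0.08, or -0.19 without knockout 1 and 0.005 without knockout 4. Slc25a12 differed by -0.11 and Slc25a13, the aspartate/glutamate carrier citrin of liver, by 0.02, with wildtype means of 10.60 and 7.16.

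All 4 di- and tricarboxylate carriers had negative differences, and 0 of 4 passed. Slc25a11, the oxoglutarate/malate carrier of the malate-aspartate shuttle, read 8.29, 8.18, 8.07 and 7.88 in knockout mice, against 8.76, 8.23, 8.09 and 8.17 in wildtype mice. Knockout 4 was the lowest and wildtype 1 the highest of the 8. The difference of -0.21 ± 0.145 (SE) was -0.06 without wildtype 1. Slc25a21 differed by -0.15, the dicarboxylate carrier Slc25a10 by -0.08 and the citrate carrier Slc25a1 by -0.04. The limma unadjusted p of Slc25a21 was 0.115 and moved both ways between settings. It was 0.0275 with the mouse number series as a block (difference -0.235), 0.0331 with repeated quantile normalization and 0.0345 without knockout 3. That limma p was 0.140 with median centring, 0.217 without knockout 1 and 0.238 without knockout 2. The wildtype signal of Slc25a21 is dim, at the 14.2nd percentile.

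Carriers of other amino acids, carnitine and choline numbered 9, of which 0 passed, with differences from -0.16 for the ornithine carrier Slc25a15 to 0.09 for Slc25a45. Slc25a44 read 10.52, 10.17, 9.89 and 9.56 in knockout mice, against 9.90, 10.02, 10.03 and 10.01 in wildtype mice. The knockout values spread on both sides of a tight wildtype group (SD 0.408 in knockout and 0.061 in wildtype mice). Its difference was 0.05 ± 0.167 (SE), or -0.12 without knockout 1 and 0.20 without knockout 4. Slc25a38, a glycine carrier that serves heme synthesis, read 9.90, 9.72, 9.36 and 9.19 in knockout mice, against 9.73, 9.31, 9.73 and 9.34 in wildtype mice, with a difference of 0.015. Among knockout mice both genes were highest in knockout 1 and lowest in knockout 4. So was Slc25a20, the carnitine/acylcarnitine carrier of fatty acid oxidation, with 8.52, 8.28, 8.21 and 7.86 in knockout mice, against 8.39, 8.34, 8.39 and 8.26 in wildtype mice. Its difference was -0.13 ± 0.121 (SE). The basic amino acid carrier Slc25a29 differed by -0.065, Slc25a47 by -0.04 and the choline carrier Slc25a48 by 0.05.

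Besides Slc25a36 and Slc25a33, the 8 cofactor and nucleotide carriers held Slc25a32, the folate or FAD carrier, with a difference of -0.15 (limma unadjusted p = 0.0813). Slc25a32 read 8.18, 8.20, 8.10 and 8.09 in knockout mice, against 8.44, 8.29, 8.22 and 8.20 in wildtype mice, so the groups touched at 8.20. All 8 carriers of this group lay above the median of the array in wildtype mice, and 0 passed the test. The NAD carrier Slc25a51 and the coenzyme A carrier Slc25a42 differed by -0.09 and -0.13. Slc25a17, a carrier of peroxisomes rather than mitochondria, read 8.95, 8.97, 8.91 and 8.87 in knockout mice, against 9.25, 8.97, 8.76 and 8.43 in wildtype mice. Here the spread lay in the wildtype mice (SD 0.044 in knockout and 0.346 in wildtype mice), which held both the highest and the lowest value. The S-adenosylmethionine carrier Slc25a26 differed by 0.015 and Slc25a16 by -0.0075.

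Of the 4 iron and glutathione carriers, 0 passed. Slc25a39, a carrier of glutathione, had the widest spread of all 48 members. It read 10.34, 9.70, 9.42 and 9.31 in knockout mice, against 9.78, 9.42, 9.62 and 9.65 in wildtype mice. Knockout 1 was far above every other array, knockout 2 and 3 lay within the wildtype range and knockout 4 below it. The difference of 0.08 ± 0.193 (SE) was -0.14 without knockout 1. Its relative Slc25a40 read 8.08, 8.09, 8.08 and 8.20 in knockout mice, against 7.88, 8.15, 8.00 and 8.01 in wildtype mice. Wildtype 2 lay above all knockout values but that of knockout 4. The difference of Slc25a40 was 0.10, and those of the iron carriers Slc25a28 and Slc25a37, mitoferrin 2 and mitoferrin 1, were -0.16 and -0.11. Slc25a37, the mitoferrin of red cell precursors, read 7.76, 7.63, 7.67 and 7.63 in knockout mice, against 8.08, 7.64, 7.72 and 7.70 in wildtype mice, with wildtype 1 highest. Without wildtype 1 the difference of Slc25a28 was -0.07 and that of Slc25a40 0.06.

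Another 6 members, placed in the outer membrane or without an assigned role here, include Slc25a46, and 0 of them passed. Slc25a46 is an outer membrane protein that acts in mitochondrial shape. It was among the steadiest, at 9.39 ± 0.075 in knockout mice and 9.35 ± 0.042 in wildtype mice (SD, n = 4 each), and its SD over the 8 arrays stood at the 4.27th percentile of all probe sets. Slc25a35, a carrier with no settled substrate, differed by 0.14 (0.07 without knockout 4). Slc25a43, Slc25a53, Slc25a54 and Slc25a34 differed by 0.05, 0.03, -0.0075 and -0.045. The pseudogene Slc25a5-ps read 6.73 in knockout and 6.72 in wildtype mice.

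**Figure D4:**
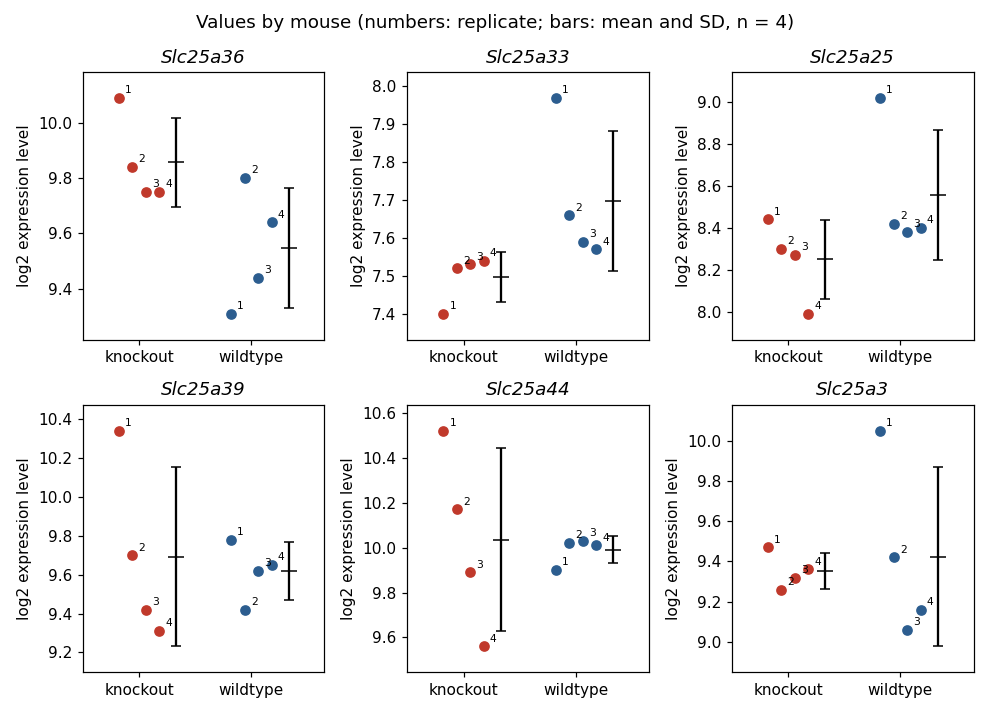
Log2 expression level (y axis, scaled per gene) in each knockout and wildtype mouse (numbers are replicates) for 6 members, with the mean and SD of 4 mice as bars. Slc25a33 is the one gene whose groups do not overlap, Slc25a39 and Slc25a44 spread widely in knockout mice, and Slc25a3 and Slc25a25 are highest in wildtype 1.

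Values also varied between mice of the same genotype. The median SD over the 8 arrays was 0.143 for members and 0.133 for all probe sets, and 8 of 48 members (16.7%) lay above the 90th percentile of SD. In order of SD these were led by Slc25a39 (0.32), Slc25a3 (0.30) and Slc25a25 (0.29). Wildtype 1 was the highest wildtype array for 24 of 48 members, against 33.1% of all probe sets. Knockout 1 was the highest and knockout 4 the lowest of the knockout arrays for 16 members (33.3%, against 16.7%), counting ties.

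A carrier score, the mean over members of log2 values centred on each gene, summarised the arrays. It was 0.05, 0.0036, -0.02 and -0.09 in knockout mice, against 0.07, 0.0076, -0.0022 and -0.02 in wildtype mice. The groups overlapped, with means of -0.014 ± 0.057 in knockout mice and 0.014 ± 0.042 in wildtype mice (SD, n = 4 each), and a difference of -0.03. With single mice left out the difference ran from -0.049 without knockout 1 to -0.0035 without knockout 4. Within the lower series of mouse numbers the difference was 0.03 (1 knockout against 3 wildtype) and within the higher -0.01 (3 against 1). Over the 31 members above the array's median signal in wildtype mice, the score was 0.08, 0.02, -0.07 and -0.12 in knockout mice, against 0.16, 0.0021, -0.02 and -0.05 in wildtype mice. The 17 dimmer members scored -0.0053, -0.02, 0.05 and -0.01 in knockout mice, against -0.08, 0.02, 0.02 and 0.03 in wildtype mice. Wildtype 1, the highest array for the brighter members, was thus the lowest for the dimmer ones. Over all probe sets, the interquartile range was widest in wildtype 1 (2.42) and knockout 1 (2.30), against 2.09 to 2.21 in the other arrays. The part of this wider scale in the carrier scores was not tested. The first principal component of all probe sets was 14.9, 0.81, -12.2 and -15.9 in knockout mice and 32.0, -2.42, -3.58 and -13.7 in wildtype mice.

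**Figure D5:**
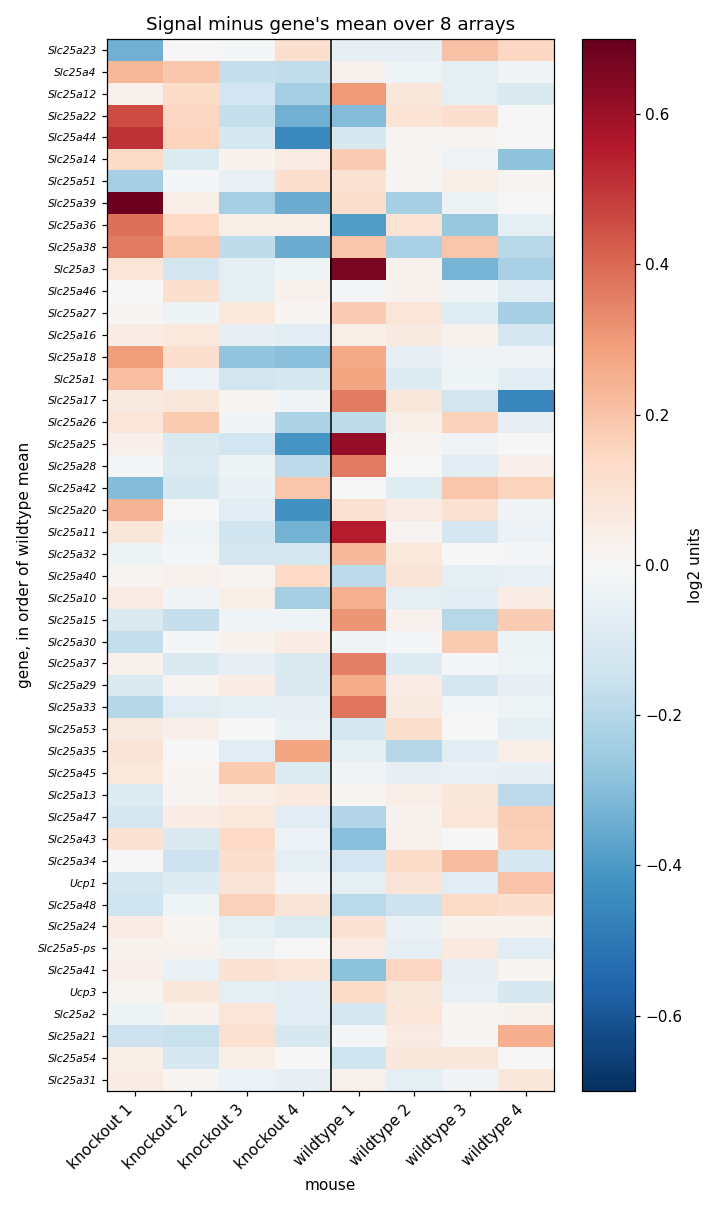
Log2 signal of each member (rows, in order of wildtype mean) minus its mean over the 8 arrays (columns, knockout mice left of the line and wildtype mice right of it), with red above and blue below the mean. Wildtype 1 and knockout 1 hold the strongest colours, including Slc25a3 and Slc25a25 in wildtype 1 and Slc25a39 in knockout 1.

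Scores of marker lists differed between arrays too. The score of 6 astrocyte markers was 0.09, 0.07, -0.03 and -0.16 in knockout mice, against 0.13, -0.03, -0.0023 and -0.07 in wildtype mice, so both knockout 1 and wildtype 1 were the highest of their groups. The same 2 arrays were the highest of their groups for 6 neuron markers, at 0.04 and 0.08, and for 6 microglia markers, at 0.08 and 0.07. The largest score of any list was that of 6 choroid plexus markers in wildtype 2, at 0.94, where scores of the knockout mice ran from -0.33 to 0.02 and those of the other wildtype mice from -0.23 to -0.01. Scores of 5 oligodendrocyte markers ran from -0.11 to 0.16 in knockout and from -0.18 to 0.24 in wildtype mice, and those of 5 endothelial markers from -0.15 to 0.08 in knockout and from -0.16 to 0.18 in wildtype mice. The score of 3 red blood cell markers was -0.44 in knockout 1 and 0.62 in knockout 4, and between -0.17 and 0.14 in wildtype mice. Its hemoglobin gene Hbb-b1 read 6.06, 6.31, 6.51 and 8.14 in knockout mice, against 6.54, 6.42, 6.43 and 6.91 in wildtype mice. Dentate granule cell markers, all 5 of them with negative differences, scored -0.23, -0.19, -0.01 and 0.07 in knockout mice, against 0.08, 0.0085, 0.13 and 0.14 in wildtype mice. The largest of these differences was that of Dsp, at -0.38 (limma unadjusted p = 0.0048, adjusted p = 0.997). The others ran from -0.17 for Tdo2 to -0.06 for C1ql2. The part of these markers in the carrier values was not tested.

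Genes that work beside the carriers also differed little. Of 33 measured genes for carrier import, other mitochondrial transport and the malate-aspartate shuttle, 0 passed the test, 13 were higher and 18 lower in knockout mice, and the median difference was -0.025. Timm22, the channel subunit that inserts carriers into the inner membrane, was the one whose groups did not overlap (1 of 33, beside 2.16% of all probe sets in either direction). Timm22 read 7.43, 7.41, 7.41 and 7.43 in knockout mice, against 7.79, 7.59, 7.52 and 7.55 in wildtype mice. The difference was -0.19 ± 0.075 (SE; limma unadjusted p = 0.0275, adjusted p = 0.997), or -0.13 without wildtype 1. The 14 import genes had a median difference of -0.04, the 16 other transporters 0.01 and the 3 shuttle enzymes Mdh1, Mdh2 and Got1 -0.05.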

How the data were processed

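Hippocampal RNA of 8 mice was measured on Affymetrix arrays, 4 knockout and 4 wildtype. The authors deposited log2 values for each probe set. Their tools were R 2.9, limma and RMA, per the submitters' processing notes, and the genome build is not given in the sources used here. Background correction therefore could not be varied, and detection calls were not used.

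Arrays were grouped by title, and replicate numbers follow record order. Each title names its own mouse. Genotype was the single factor in limma 3.58.1 under R 4.3.3 (lmFit, eBayes, two-sided), fitted on all 20985 probe sets with Benjamini-Hochberg adjustment and a threshold of 0.05. The annotation named 19921 probe sets. The fit was run on simulated data with independent noise for each probe set and array. That simulation held no shared array effects and no mouse number series, so it does not cover them.

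The rule for named genes took Kcnh1, members past the threshold or with groups that do not overlap, the 5 each way with the smallest p, the 5 brightest and 5 dimmest in wildtype, the 3 with the largest SD, and fixed representatives of each role; other members were named after their values were seen. Members, gene lists and motifs were chosen with earlier results of these data known. Promoters came from RefSeq's table (GRCm38.p6), matched by gene number. Gene order came from the GRCm38.p6 gene table.

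Tried in place of these settings were leaving out each mouse, or knockout 1 with wildtype 1, the mouse number series as a block, median centring, weights per array, an intensity trend, a second quantile normalization, and dropping the dimmest 25% of probe sets.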

Additional observations from a re-analysis of the deposited data

Results flagged for a closer look

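In groups of 4 mice, 1 array stood far from the other 3 in 7 of the 64 groups of values checked (10.9%). The rule gives about 1 in 20 by chance for independent groups not chosen by their values. Here the groups share the same 8 arrays, and the flagged genes are among the named genes, some of which were chosen from these values. The rates therefore cannot be compared. In wildtype mice, wildtype 1 read 9.02 for Slc25a25 against 8.38 to 8.42 in the others, 9.09 for Slc25a18 against 8.77 to 8.80, and 9.90 for Slc25a44 against 10.01 to 10.03. Wildtype 3 read 8.02 for Slc25a30 against 7.80 to 7.82. In knockout mice, knockout 1 read 7.40 for Slc25a33 against 7.52 to 7.54, knockout 3 read 6.17 for Slc25a21 against 5.91 to 5.95, and knockout 4 read 8.20 for Slc25a40 against 8.08 to 8.09.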

How the results depend on the processing

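No paired analysis was possible because the labels give the mice no replicate numbers that groups share. Of the 48 members, 0 passed the threshold under 6 of the other settings or with any mouse left out, nor did any of the 43 still tested without the dimmest 25% of probe sets, and their lowest limma adjusted p was 0.817, with array weights. Over all probe sets, 2 passed in place of 1 with array weights and with repeated quantile normalization, the second being Tatdn3. Members at an unadjusted p under 0.05 numbered 3 with the mouse number block (Slc25a36, Slc25a21 and Slc25a23), 2 with repeated quantile normalization, without knockout 3 and without wildtype 4, and 0 without wildtype 1. Members with small differences changed sign, and the cause was not tested. With array weights the values were -0.0032 for Slc25a41, 0.017 for Slc25a12, 0.024 for Slc25a31, 0.026 for Ucp3, 0.039 for Slc25a3, -0.010 for Slc25a13 and 0.040 for Slc25a18. Median centring gave 0.0050 for Slc25a31, 0.010 for Slc25a54 and 0.015 for Slc25a2. The mouse number block gave 0.012 for Slc25a54, 0.027 for Ucp3, 0.057 for Slc25a3 and 0.053 for Slc25a18. Without knockout 1 and wildtype 1 together, values were 0.15 for Slc25a36 and -0.08 for Slc25a33, and, with the sign changed, -0.0067 for Slc25a4, -0.187 for Slc25a22, -0.147 for Slc25a44, 0.0033 for Ucp3, -0.087 for Slc25a39 and 0.10 for Slc25a3. With each mouse left out in turn, values ran from -0.024 to 0.109 for Slc25a4, -0.093 to 0.17 for Slc25a22, -0.117 to 0.203 for Slc25a44, -0.0375 to 0.012 for Slc25a31, -0.056 to 0.028 for Slc25a54, -0.042 to 0.025 for Slc25a2, -0.066 to 0.014 for Ucp3, -0.141 to 0.2025 for Slc25a39, -0.191 to 0.139 for Slc25a3, -0.022 to 0.132 for Slc25a14, -0.0375 to 0.054 for Slc25a13, -0.192 to 0.0050 for Slc25a18 and -0.046 to 0.091 for Slc25a27. With 4 mice a group, the intervals give the differences these data allow in the fit without the mouse number series.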
